A study of Mus musculus with 8 samples.

Results

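Foxb1, Olig3, Olig1, Olig2, Nkx2-2, Pax6 and Neurog2 are 7 genes for transcription factors of the neural lineage, 7 of the 21911 protein-coding genes annotated on the placed mouse chromosomes. Peaks of the delivered reprogramming factors were collected for each of them wherever the summit, the highest point of a peak, lay in the gene body or within 100 kb of the first transcription start site. This gave 180 different summits out of 661009 peaks in all. Mouse embryonic fibroblasts (MEFs), the connective tissue cells from which reprogramming starts, were profiled at day 3 after delivery of the factors by CUT&Tag, in which an antibody carries the transposase Tn5 to its target so that the DNA beside it is cut and sequenced. Tn5 was directed to the Flag tag that each delivered factor carried. The 8 libraries were Nanog, NanogBiD, Oct4, Oct4BiD, Sox2, Sox2BiD, Nr5a2 and Nr5a2BiD, where BiD marks a fusion with the part of SS18 through which it interacts with BRG1, the catalytic subunit of BAF, a remodelling complex that moves nucleosomes. All groups shared the MEF source, the Flag antibody and the day, and whether other factors were given together with the tagged one is not stated in the titles. Per the study's methods the factors came from retroviral vectors, so expression of the factors was driven by the vector and not by the genes' own promoters. There was 1 library per group, so none of the values below has a replicate, and no test within a factor was possible.

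Each library gave between 54794 peaks, in Oct4, and 120594 peaks, in Sox2BiD. Summit heights are whole tags at the summit, not scaled to sequencing depth, and median heights ranged from 16 tags in Nanog to 22 tags in Sox2. The score of a peak is 10 times the negative log10 of the peak caller's p-value, with a lowest value of 50 in every library. On the coding exons of the tagged factors' own genes, where vector DNA is read as genomic, 13 summits came from the matching libraries and 1 from a library of a different factor. The Oct4 libraries had no summit there and could not be checked in this way. Summits within 2 kb of a start site lay at all 10 of a list of fibroblast genes (Col1a1, Col1a2, Col3a1, Col6a1, Fn1, Vim, Thy1, Pdgfra, Pdgfrb and Twist2) in at least 1 library, and at all 7 of a list of genes of neural cells (Nes, Sox1, Tubb3, Map2, Dcx, Gfap and Sox10), where 75.6% of all coding genes had one. Library by library, the fibroblast genes with such a summit ran from 6 in Sox2 to 10 in Nanog. The neural cell genes ran from 1 in Nanog, Oct4 and Sox2 to 6 in Nr5a2. The share of all coding genes ran from 25.2% in Sox2 to 63.5% in Nr5a2. Peaks of a factor do not measure expression, so the cell type could not be checked further.

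The products of these genes act at successive steps of the development of the central nervous system. Pax6 and Nkx2-2 are homeodomain proteins that divide the ventral neural tube into progenitor domains, and Olig1, Olig2 and Olig3 are basic helix-loop-helix proteins of progenitors, with Olig2 needed for motor neurons and both Olig1 and Olig2 for oligodendrocytes. Neurog2 is a proneural basic helix-loop-helix factor that drives progenitors to become neurons. Foxb1 is a forkhead factor of the developing brain and spinal cord. In fibroblasts such genes are as a rule silent and lie in chromatin marked by Polycomb proteins. The text of the study names Foxb1 and Olig3 among the genes tied to NanogBiD reprogramming, which is why they are described first. The study drew on gene expression, chromatin accessibility and adding these genes to Nanog and Oct4 reprogramming. These measures are unlike the peaks described here.

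The genes lie at 6 places in the genome. In mm10, Foxb1 (ENSMUSG00000059246.4) lies on the minus strand at chr9:69757710-69760940, Olig3 (ENSMUSG00000045591.6) on the plus strand at chr10:19356533-19358604, and Nkx2-2 (ENSMUSG00000027434.11) on the minus strand at chr2:147177546-147194243. Pax6 (ENSMUSG00000027168.21) lies on the plus strand at chr2:105668900-105697364 and has 24 annotated start sites. Neurog2 (ENSMUSG00000027967.8) lies on the plus strand at chr3:127633135-127635631. The first start sites of Larp7 and Zgrf1 and an annotated start site of Alpk1 lie in its window. Olig2 (ENSMUSG00000039830.9, chr16:91225457-91228677) and Olig1 (ENSMUSG00000046160.6, chr16:91269772-91271933) are neighbours on the plus strand. Their windows overlap, so summits between them count for both and the counts of these genes are not independent. Distances below are from the first start site, in the direction of transcription.

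Sequence under the summits is shown first for the sites where the tagged factor's own motif was found, since these are the sites at which a letter sequence and a peak can be read together. Each line is the 101 bases centred on a summit, from mm10, plus strand, 5′ to 3′, and capitals mark the match. The letters searched on both strands were ATGCAAAT and ATGCTAAT for the octamer bound by Oct4, GCCATTA for NANOG, CCATTGTT and CCTTTGTT for SOX factors, CAAGGTCA and CAAGGCCA for NR5A receptors, and TGACTCA and TGAGTCA for AP-1. Shown are 14 of the 24 windows outside annotated exons that held a match of the tagged factor's own motif, picked to cover the genes and factors that had one. No such window lay near Nkx2-2, and native Nanog, Oct4 and Sox2 had 0.
Foxb1, 84.1 kb upstream, Oct4BiD, chr9:69844945-69845045: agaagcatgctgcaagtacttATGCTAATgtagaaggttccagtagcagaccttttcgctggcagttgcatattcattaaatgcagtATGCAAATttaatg
Foxb1, 3.21 kb upstream, Oct4BiD, chr9:69764105-69764205: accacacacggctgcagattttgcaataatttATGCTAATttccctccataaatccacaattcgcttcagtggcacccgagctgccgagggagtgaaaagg
Olig3, 91 kb upstream, Oct4BiD, chr10:19265461-19265561: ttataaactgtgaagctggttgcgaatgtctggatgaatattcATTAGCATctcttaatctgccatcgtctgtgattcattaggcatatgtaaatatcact
Olig3, 67.7 kb downstream, Oct4BiD, chr10:19424218-19424318: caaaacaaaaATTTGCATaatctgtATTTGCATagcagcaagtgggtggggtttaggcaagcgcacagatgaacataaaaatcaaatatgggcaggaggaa
Olig2, 98.6 kb upstream, Oct4BiD, chr16:91126769-91126869: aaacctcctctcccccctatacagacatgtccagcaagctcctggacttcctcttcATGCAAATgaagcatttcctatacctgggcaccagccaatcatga
Olig1, 34.7 kb downstream, Oct4BiD, chr16:91304436-91304536: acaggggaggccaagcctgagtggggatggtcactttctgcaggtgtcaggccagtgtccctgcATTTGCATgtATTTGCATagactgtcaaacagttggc
Neurog2, 61 kb upstream, Oct4BiD, chr3:127572051-127572151: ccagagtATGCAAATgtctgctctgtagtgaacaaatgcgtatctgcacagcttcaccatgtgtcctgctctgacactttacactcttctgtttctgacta
Foxb1, 45.4 kb downstream, NanogBiD, chr9:69715504-69715604: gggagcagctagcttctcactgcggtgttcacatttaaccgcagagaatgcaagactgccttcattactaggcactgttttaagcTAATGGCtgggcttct
Pax6, 5.84 kb upstream, NanogBiD, chr2:105663005-105663105: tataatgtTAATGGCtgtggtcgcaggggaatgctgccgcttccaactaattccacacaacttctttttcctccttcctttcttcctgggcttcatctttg
Olig3, 56.7 kb downstream, Sox2BiD, chr10:19413135-19413235: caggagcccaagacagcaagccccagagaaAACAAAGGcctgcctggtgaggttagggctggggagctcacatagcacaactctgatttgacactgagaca
Olig1, 40.3 kb downstream, Sox2BiD, chr16:91310043-91310143: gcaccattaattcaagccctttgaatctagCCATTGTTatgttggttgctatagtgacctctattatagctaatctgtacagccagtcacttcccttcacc
Olig3, 3.26 kb upstream, Nr5a2, chr10:19353219-19353319: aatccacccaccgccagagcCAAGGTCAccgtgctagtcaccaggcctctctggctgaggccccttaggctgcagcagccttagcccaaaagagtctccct
Olig3, 57.6 kb downstream, Nr5a2, chr10:19414126-19414226: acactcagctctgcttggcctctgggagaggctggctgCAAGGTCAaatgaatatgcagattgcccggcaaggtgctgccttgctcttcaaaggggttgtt
Olig1, 87.9 kb downstream, Nr5a2BiD, chr16:91357615-91357715: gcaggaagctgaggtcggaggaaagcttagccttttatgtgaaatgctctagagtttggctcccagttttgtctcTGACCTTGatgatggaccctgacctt

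Of the motifs, the octamer had the highest share in a library of its own factor. It was found within 50 bp of 10 of the 33 Oct4BiD summits near the 7 genes, or 30.3% (exact 95% interval 15.6 to 48.7%), against 13% of all Oct4BiD summits. These 10 sites were shared out between Foxb1, Olig3, Olig1 and Olig2, Pax6 and Neurog2. Of the 9 windows outside exons, 3 held 2 octamers, at 84.1 kb upstream of Foxb1, 67.7 kb downstream of Olig3 and 34.7 kb downstream of Olig1. Native Oct4 had the octamer at 0 of its 13 summits near the genes, an interval of 0 to 24.7%, against 5.53% of all its summits, so a share near that of all summits was not detectable with so few. For Nr5a2 the NR5A letters were at 7 of 41 summits, or 17.1% (7.15 to 32.1%), against 16.3% of all, and for Nr5a2BiD at 4 of 28, or 14.3% (4.03 to 32.7%), against 12.7%. Both shares lay close to those of the whole libraries. The SOX letters were at 1 of 11 Sox2 summits, against 4.69% of all, and at 3 of 40 Sox2BiD summits, or 7.5% (1.57 to 20.4%), against 7.94%. The NANOG letters were at 0 of 5 Nanog summits and at 2 of 9 NanogBiD summits, against 1.7% and 2.55% of all summits. These intervals cover counting error over summits of 1 library only, and a match or its lack is a description of these letters in this window. The AP-1 letters, bound by a factor that fibroblasts themselves express, were at 9 of the 180 summits, where the share over all summits of a library ran from 3.61% to 10.2%. The median GC content of the windows was above that of all peaks in Nanog, Oct4, Sox2, their fusions and Nr5a2, as in Nr5a2 with 53.5% against 50.5%, and under it in Nr5a2BiD, with 48.5% against 49.5%.

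Few peaks lay near the 7 genes. The number of summits over the 8 libraries was 35 at Foxb1, 29 at Olig3, 34 at Olig1, 28 at Olig2, 15 at Nkx2-2, 24 at Pax6 and 37 at Neurog2. The median of 29 stood against 76 over all coding genes, and between 13.3% of coding genes, for Nkx2-2, and 21.6%, for Neurog2, had as few or fewer. Most coding genes have other genes close by, and 2778 had no other coding start in their window. The median of these was 66, and 22.7% of them had as few summits as the members' median or fewer. A list of 26 other neural transcription factor genes had a median of 39.5, from 10 at Neurod4 to 83 at Emx2.

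The counts varied from library to library at each gene. Near Foxb1 there was 1 summit in Nanog, 1 in NanogBiD, 3 in Oct4, 8 in Oct4BiD, 3 in Sox2, 8 in Sox2BiD, 6 in Nr5a2 and 5 in Nr5a2BiD. Olig3 was much alike, with 1, 1, 2, 7, 2, 5, 6 and 5 in the same libraries. Both Nanog libraries were thus the lowest at these genes, and Oct4BiD, Sox2BiD and both Nr5a2 libraries the highest. Nkx2-2 had 0 summits in Nanog and NanogBiD, 1 in Oct4, 1 in Oct4BiD, 3 in Sox2, 2 in Sox2BiD, 4 in Nr5a2 and 4 in Nr5a2BiD. Neurog2 had the highest count of any member in a library, 10 in Nr5a2, with 6 in Nr5a2BiD. Part of these summits lay nearer to the start of another gene. Counting only summits whose nearest coding start was that of one of the 7 genes, Neurog2 had 5 in Nr5a2 and 2 in Nr5a2BiD. By that count Olig2 had 8 and 5.

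**Figure D1:**
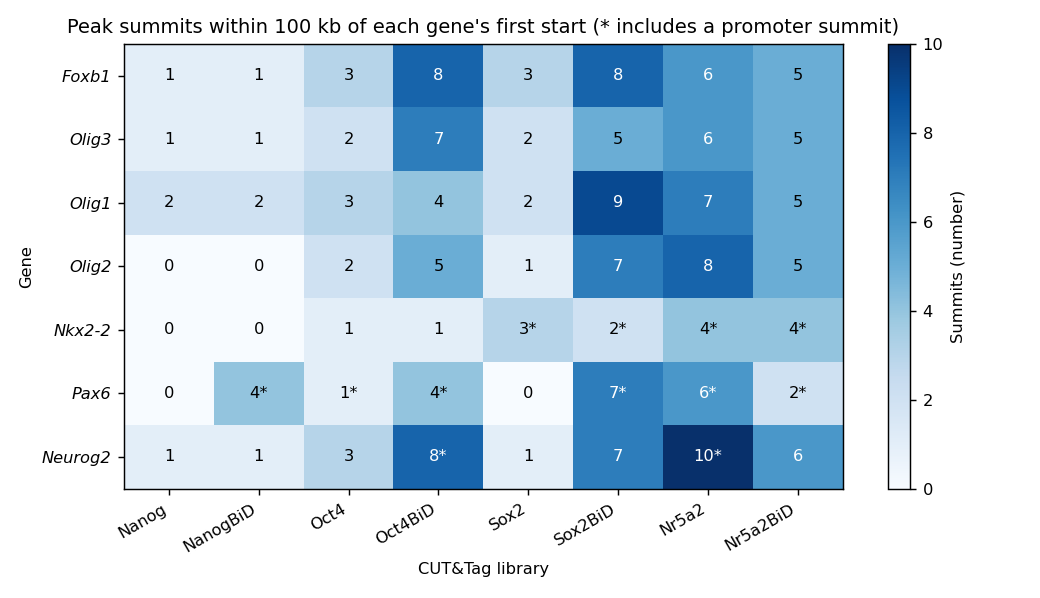
Number of peak summits within 100 kb of the first start site, or in the gene body, of each gene (rows) in each of the 8 CUT&Tag libraries (columns). A star marks a count that includes a summit within 2 kb of an annotated start of the gene, and the Nanog column holds no count above 2 while Sox2BiD holds counts from 2 to 9.

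At least 1 summit was found at 4 of the 7 genes in Nanog, 5 in NanogBiD, 6 in Sox2, and all 7 in Oct4, Oct4BiD, Sox2BiD, Nr5a2 and Nr5a2BiD. The genes without one in Nanog were Olig2, Nkx2-2 and Pax6. The share of all coding genes with at least 1 summit was 88.7% in Nanog, 87.9% in NanogBiD, 88.5% in Oct4, 90.3% in Oct4BiD, 88.2% in Sox2, 92.1% in Sox2BiD, 90.8% in Nr5a2 and 90.1% in Nr5a2BiD. Per 10000 peaks of a library, 0.681 lay near the 7 genes in Nanog and 1.19 in NanogBiD, against 2.37 in Oct4, 3.51 in Oct4BiD, 1.89 in Sox2, 3.32 in Sox2BiD, 3.8 in Nr5a2 and 3.67 in Nr5a2BiD. By this measure, which takes the number of peaks of each library into account, Nanog was again the lowest.

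Summits at the promoters of the genes were rare. A promoter summit, within 2 kb of any annotated start of the gene, was found at 3 of the 7 genes in at least 1 library, against 75.6% of all coding genes and 14 of the 26 other neural genes. Foxb1, Olig3, Olig1 and Olig2 had none in any of the 8 libraries. In Nanog none of the 7 genes had one, where 51.2% of coding genes did. NanogBiD, at 1 gene, and Oct4, at 1 gene, stood against 54.5% and 39%. Oct4BiD had a promoter summit at 2 of the genes, against 55.9%, and Sox2 at 1, against 25.2%. Sox2BiD reached 2 genes, where 53.4% of coding genes had one, Nr5a2 reached 3, where 63.5% did, and Nr5a2BiD reached 2, where 53.9% did. Of the 180 summits, 14 lay at the promoters of the members. With the promoters of their neighbours and of non-coding genes included, 18.3% lay within 2 kb of a start, against 20.6% of all peaks, and the median distance to the nearest start was 11.4 kb, against 11 kb. The absence of summits was thus at the members' own starts, while the peaks in the windows lay about as far from any start as peaks elsewhere.

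**Figure D2:**
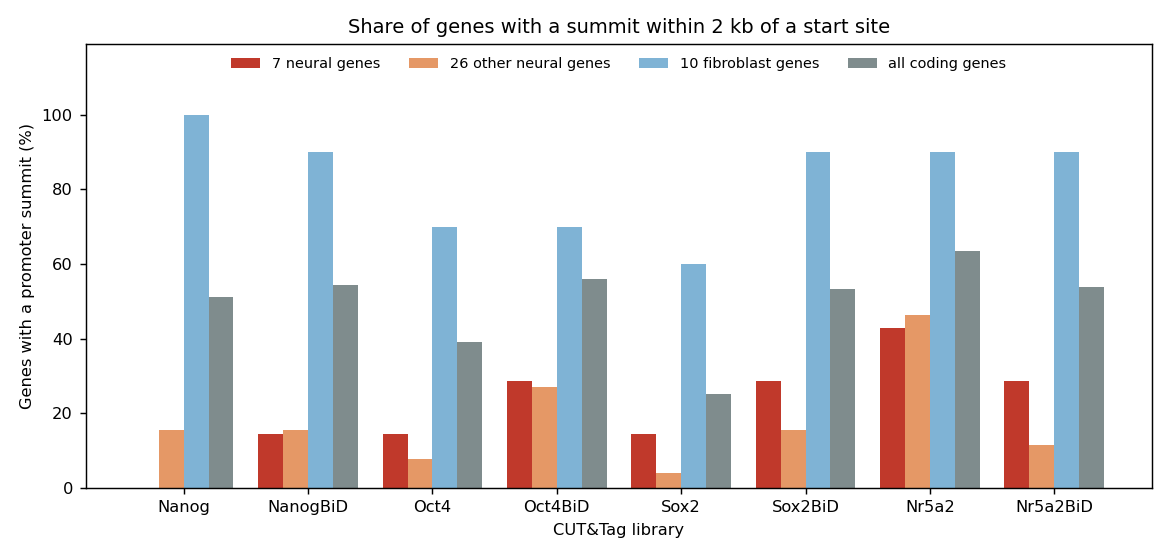
Percentage of genes with a summit within 2 kb of an annotated start site in each of the 8 libraries, for the 7 neural genes, the 26 other neural transcription factor genes, the 10 fibroblast genes and all 21911 coding genes. The 7 neural genes lie below all coding genes in each library, at 0% in Nanog and at most 42.9%, in Nr5a2.

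The 3 genes with promoter summits held them at different starts. At Nkx2-2, Nr5a2 had a summit of 43 tags (score 439) 205 bp downstream of the first start, in an exon, and Nr5a2BiD had one of 19 tags (score 128) at 203 bp. This region, chr2:147192844-147194776, held the highest Nr5a2 summit at this gene. Sox2 had a summit of 15 tags 1480 bp upstream of the same start, in an intron of the antisense gene Nkx2-2os. Sox2BiD had one of 11 tags 5.93 kb downstream, near an inner start. Both Sox2 promoter summits were low for their libraries, that of Sox2 as high as or higher than 18.7% of its peaks and that of Sox2BiD than 8.54%.

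At Pax6 the promoter summits lay at inner starts, not at the first one. The region chr2:105674034-105675911, 6.51 kb downstream of the first start, held NanogBiD at 25 tags (score 162), Oct4 at 12 tags (score 96.4) and Oct4BiD at 66 tags (score 435). The Oct4BiD summit lay 19 bp from an annotated start, in an untranslated part of Pax6, and was as high as or higher than 98.2% of the peaks of its library. Sox2, Sox2BiD, Nr5a2, Nr5a2BiD and Nanog had no peak there. Another inner start, at chr2:105691240-105692907, 23.1 kb downstream, held Oct4BiD at 34 tags and Sox2BiD at 24 tags, with no peak in Oct4 or Sox2. Nr5a2 and Nr5a2BiD had 10 tags each at chr2:105677394-105677917, and NanogBiD had 11 tags 25.1 kb downstream. At Neurog2 the promoter held Oct4BiD, with 16 tags 241 bp upstream of the start, and Nr5a2, with 9 tags 709 bp downstream in the coding sequence. Neither had a partner in the other form of the same factor.

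The BiD fusions of Oct4 and Sox2 had more summits near the genes than the native factors, and the fusion of Nr5a2 had fewer. Oct4BiD had 33 and Oct4 13, a log2 ratio of 1.34 (exact 95% interval from the counts 0.38 to 2.39), where the log2 ratio of all peaks of these libraries was 0.78. Sox2BiD had 40 and Sox2 11, a log2 ratio of 1.86 (0.87 to 2.97), against 1.05 over all peaks. Both ratios lay above those of all peaks, and both intervals held the ratio of all peaks. Nr5a2BiD had 28 and Nr5a2 41, a log2 ratio of -0.55 (-1.30 to 0.18), against -0.50. NanogBiD had 9 and Nanog 5, a log2 ratio of 0.85 (-0.88 to 2.77), against 0.04. Intervals cover counting error, not the spread between cultures, and a lower number of tags per cell cannot be told apart from fewer cells that carry the factor.

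Gene by gene, Oct4BiD had more summits than Oct4 at 6 of the 7 genes and as many at Nkx2-2, while 82.2% of all coding genes had more in Oct4BiD. Sox2BiD had more than Sox2 at 6, against 88.4% of coding genes, and fewer at Nkx2-2, with 2 against 3. For Nr5a2 the fusion had fewer at 6 genes and as many at Nkx2-2, so that none of the 7 had more, against 4.19% of coding genes. For Nanog only Pax6 had more in the fusion, with 4 against 0, and the other 6 genes had equal counts, where 53.2% of coding genes had more in NanogBiD. The direction at most of these genes was therefore the direction of the whole libraries, apart from the equal Nanog counts.

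The summits near the genes were mostly of middling height. Their median was 16 tags in Nanog and in NanogBiD, 11 in Oct4, 16 in Oct4BiD, 17 in Sox2, 18.5 in Sox2BiD, 17 in Nr5a2 and 18 in Nr5a2BiD. The medians of all peaks of these libraries were 16, 20, 17, 19, 22, 21, 21 and 21 tags, so the genes' summits were at or under the median height in each library. The highest were 28 tags in Nanog, 36 in NanogBiD, 26 in Oct4, 66 in Oct4BiD, 44 in Sox2, 73 in Sox2BiD, 49 in Nr5a2 and 42 in Nr5a2BiD.

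The heights in the same regions were compared next. Peaks of all libraries that overlapped by at least 1 bp were merged into 111 regions near the genes. The summits of a region can therefore lie apart, as those of Oct4 and Oct4BiD did at chr9:69844615-69845824 near Foxb1. For Nr5a2, 24 regions held both forms, 16 the native form alone and 4 the fusion alone. For Oct4 these were 9, 4 and 23 regions, for Sox2 9, 2 and 31, and for Nanog 4, 1 and 5. Of the fusion's regions, the native form was called at 28.1% for Oct4, 22.5% for Sox2, 44.4% for Nanog and 85.7% for Nr5a2, against 42.8%, 41.9%, 70.4% and 86.3% of all regions of these fusions in the genome. Regions of BiD libraries only were 49 of the 111, or 44.1%, against 30.9% in the genome. Of the regions with both forms, the fusion had the higher summit in 8 of 9 for Oct4, against 70.3% of such regions in the genome, and in 5 of 9 for Sox2, with 1 equal, against 68.1%. It had the higher summit in 2 of 4 for Nanog, against 66.2%, and in 8 of 24 for Nr5a2, with 2 equal, against 31%. Median log2 ratios of height, fusion over native, were 0.49 for Oct4, 0.24 for Sox2, 0.11 for Nanog and -0.17 for Nr5a2, where all such regions of the genome had 0.43, 0.32, 0.25 and -0.19. The median height ratios thus lay close to those of the genome, while fewer of the Oct4BiD, Sox2BiD and NanogBiD regions held the native form than in the genome. Heights are not scaled to depth, and neither difference was tested.

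**Figure D3:**
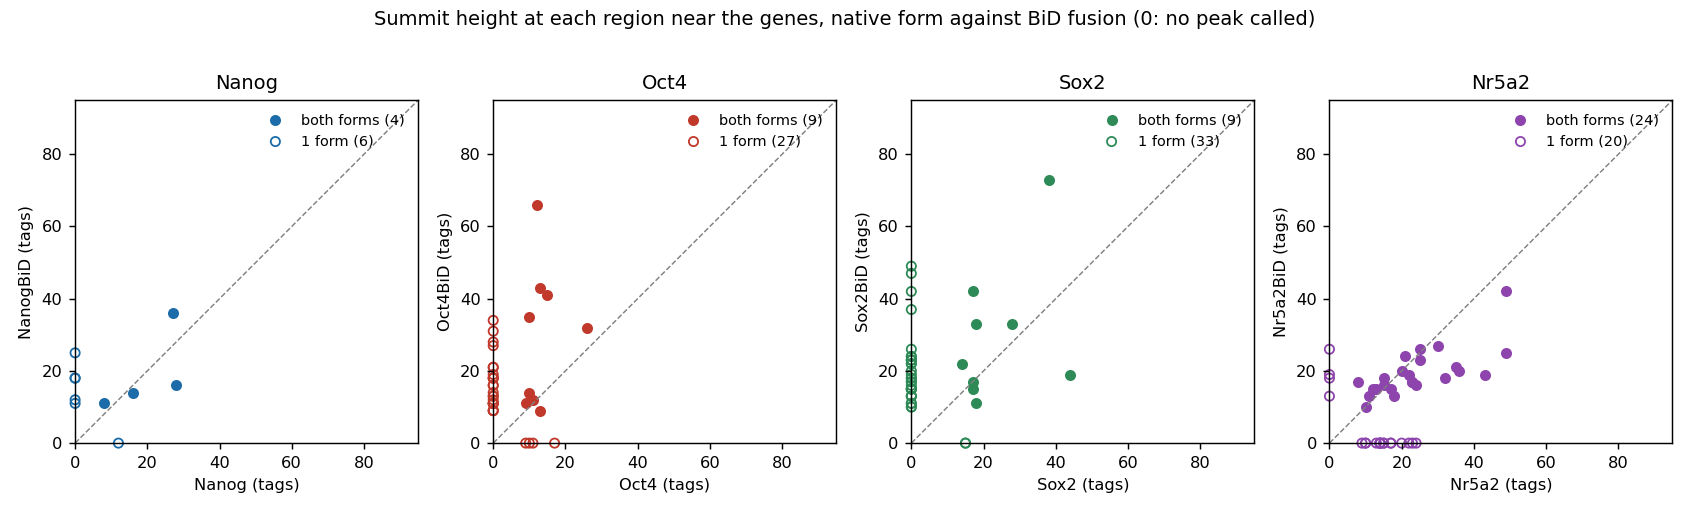
Summit height in tags at each of the 111 regions near the genes, native form on the x axis and BiD fusion on the y axis, with 1 panel per factor; 0 means that no peak was called. Filled points are regions with both forms, open points regions with 1 form, and the dashed line marks equal heights, with 8 of 9 filled Oct4 points above it and 14 of 24 filled Nr5a2 points below it.

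The sites were seldom shared between factors. Of the 111 regions, 62 (55.9%) had a peak of 1 library, against 46% of the 306466 regions of the genome, and 39 had peaks of 2 libraries. No region had peaks of all 8 libraries, against 1.49% in the genome. Peaks of 1 factor alone, in either form, made up 94 regions (84.7%), against 71.5%. A further 14 regions had peaks of 2 factors, 2 had peaks of 3, and 1 had peaks of all 4. That single region, chr3:127552560-127555191, lay 80 kb upstream of Neurog2 at the starts of Larp7 and Zgrf1, genes of an RNA-binding protein and of a helicase. It held Nanog at 27 tags, NanogBiD at 36, Oct4 at 26, Oct4BiD at 32, Sox2BiD at 17, Nr5a2 at 24 and Nr5a2BiD at 16, with native Sox2 alone missing. It is the one region of the 111 with more than 5 libraries, and its summits lay nearer to the start of another gene than to that of Neurog2.

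Foxb1 had 22 regions, all distal. Of these, 12 had a peak of 1 library, 18 had peaks of 1 factor, and 11 had peaks of BiD libraries only. The shares over all regions of the genome were 46%, 71.5% and 30.9%. The region with most libraries was chr9:69810457-69812619, with its highest summit 50.3 kb upstream in an intron of the antisense gene B230323A14Rik. It held Oct4 at 15 tags (score 75.6) and Oct4BiD at 41 tags (score 425), both with summits 51.1 kb upstream, and Sox2 at 17 tags (score 105) and Sox2BiD at 42 tags (score 433), both with summits 50.3 kb upstream. The fusions were the higher form for both factors, and the summits of Oct4 and of Sox2 lay apart from each other.

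Most of the other sites of Foxb1 held peaks of 1 factor. At chr9:69844615-69845824, Oct4 had 13 tags 84.6 kb upstream and Oct4BiD 43 tags (score 286) 84.1 kb upstream, the site whose octamer is printed above. Sox2BiD alone had 49 tags (score 582) at chr9:69765935-69767092, 5.68 kb upstream, its highest summit at this gene and as high as or higher than 92.1% of its peaks. It also had 37 tags alone 64.5 kb downstream. Nanog and NanogBiD each had 1 summit here, and not at the same site. Nanog had 12 tags at chr9:69712767-69714181, 47.6 kb downstream, where Sox2 had 28 tags and Sox2BiD 33 (score 538). NanogBiD had 18 tags (score 198) at chr9:69715014-69716556, 45.4 kb downstream, with no other library, on the NANOG letters printed above. Most summits of Nr5a2 and Nr5a2BiD were gathered between 53.5 and 63.4 kb downstream, with 15 to 25 tags in Nr5a2 and 18 to 26 tags in Nr5a2BiD. The highest-scoring Nr5a2 site among them, chr9:69700642-69701608, 59.8 kb downstream, had 21 tags (score 121) in Nr5a2 and 24 (score 77.9) in Nr5a2BiD. Nr5a2 alone of the pair had a summit, of 17 tags, 79.4 kb downstream, where Sox2BiD had 15. On the other side of the gene, Nr5a2 had 10 tags 48.5 kb upstream and Nr5a2BiD 13 tags 49.2 kb upstream.

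**Figure D4:**
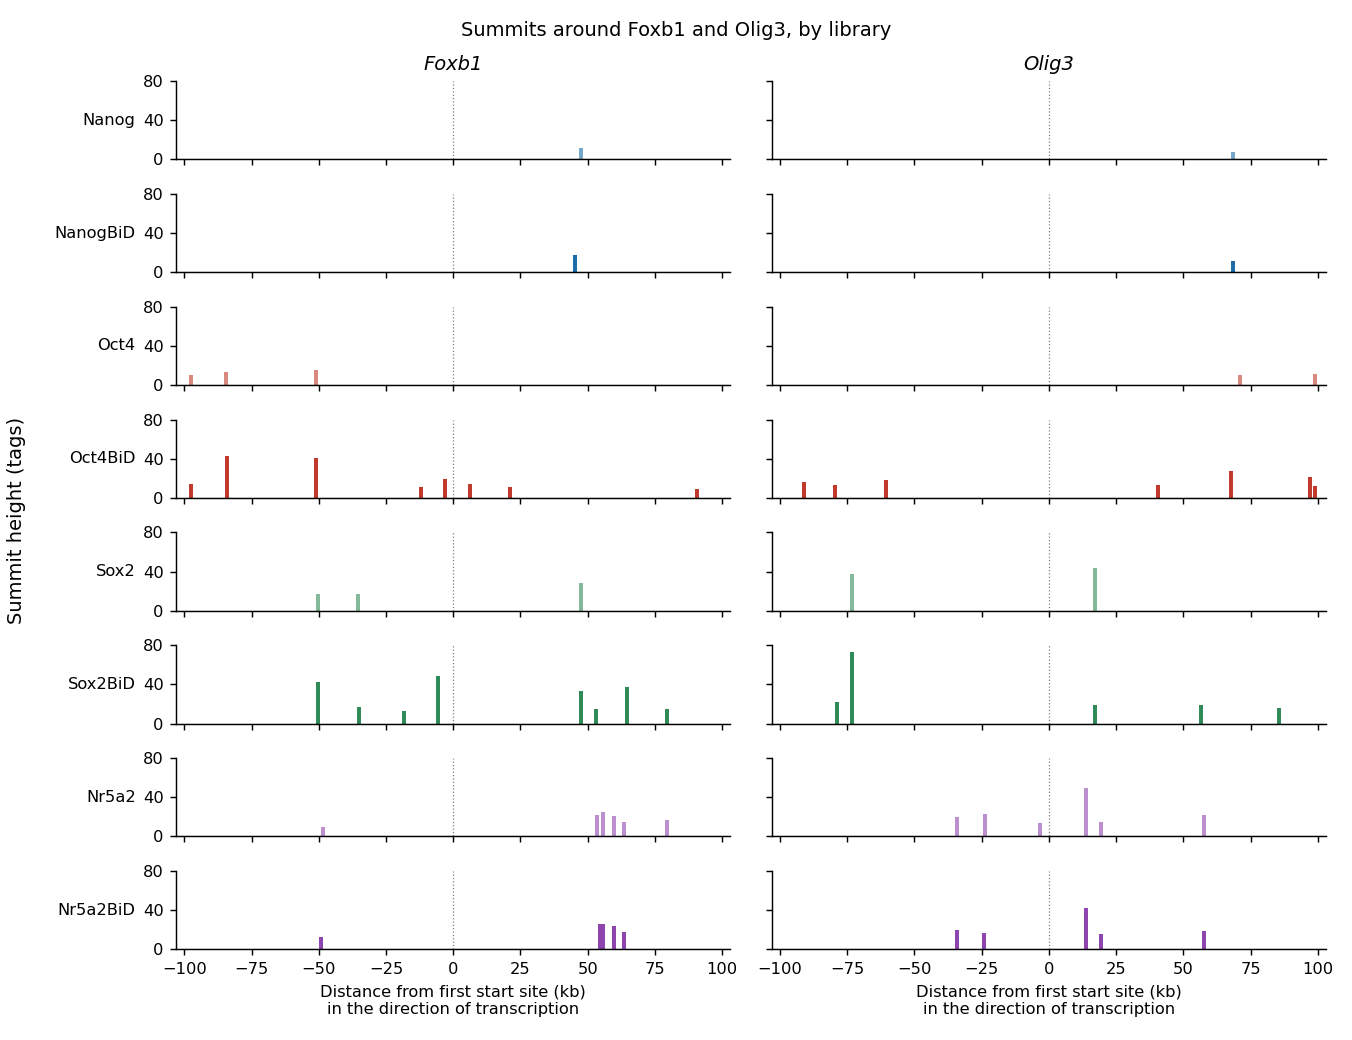
Summits around Foxb1 and Olig3 in the 8 libraries, by distance in kb from the first start site (dotted line) in the direction of transcription, with the bar height the summit height in tags. No summit lies within 2 kb of either start, and the highest bar is Sox2BiD at 73 tags, 73.3 kb upstream of Olig3.

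Olig3 had 19 regions, of which 18 had peaks of 1 factor and 9 had peaks of both forms of a factor. The exception was chr10:19276613-19278223, with Oct4BiD at 13 tags and Sox2BiD at 22, whose summits lay 79.7 and 78.8 kb upstream. The highest summit near any of the 7 genes was at chr10:19282447-19284427, 73.3 kb upstream of Olig3, where Sox2BiD had 73 tags (score 860) and Sox2 had 38 tags (score 282). The Sox2BiD summit was as high as or higher than 99.1% of the peaks of its library. The order of the forms was the opposite 17.3 kb downstream, at chr10:19373195-19374467, where Sox2 had 44 tags (score 492) and Sox2BiD 19 (score 190). The same pair of libraries thus differed in opposite directions at these sites of 1 gene.

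Nr5a2 peaked 13.9 kb downstream of Olig3, at chr10:19369874-19370882, with 49 tags (score 525) in Nr5a2 and 42 tags (score 402) in Nr5a2BiD. Of the 6 Nr5a2 summits at this gene, 4 held the NR5A letters, and the one closest to the start, 14 tags at 3.26 kb upstream, was among them and had no Nr5a2BiD peak. Oct4BiD had 7 summits of 12 to 27 tags, 3 of them with the octamer, and shared with Oct4 only the region 99.2 kb downstream, where Oct4BiD had 12 tags and Oct4 11. Both Nanog forms met at chr10:19424825-19425402, 68.6 kb downstream, with 8 tags in Nanog and 11 in NanogBiD, and these were their only summits at the gene. The Nanog summit was as high as or higher than 3.75% of the peaks of its library, and that of NanogBiD than 11%.

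Foxb1 and Olig3 had much the same profile over the 8 libraries. Pearson's correlation of log2 of the count plus 1 was 0.96 over the 8 libraries, which share cells' source and antibody and differ in their number of peaks. The genes most like Foxb1 among 19484 coding genes with at least 10 summits were Pde1b (0.98), Vmn2r85 (0.98) and Olfr213 (0.98), and those most like Olig3 were Echdc2 (0.99), Scp2 (0.99) and Arhgef38 (0.99). Over 0.95 were 28 genes for Foxb1 and 35 for Olig3. These values are descriptions of 8 points each.

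Olig1 had 21 regions and Olig2 19, of which 15 lay in both windows. None was at a promoter of either gene. The region with most libraries was chr16:91352112-91353270, 83 kb downstream of Olig1, with Nanog at 16 tags, NanogBiD at 14, Oct4 at 11, Sox2 at 14 and Sox2BiD at 22. It is 1 of the 2 regions near the 7 genes with 3 factors, and it held no Nr5a2 peak. Both Nanog forms met again 93.8 kb downstream of Olig1, where Nanog had 28 tags (score 295) and NanogBiD 16 (score 173). The summits of both regions lay nearer to the start of another gene, Ifnar2, than to that of Olig1. With nearest coding starts only, Olig1 had 0 summits in Nanog and 0 in NanogBiD.

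The highest summits in the windows of this pair of genes belonged to Nr5a2 and to Sox2BiD. Nr5a2 had 49 tags (score 421) and Nr5a2BiD 25 (score 320) at chr16:91356623-91358286, with summits 87.4 and 87.9 kb downstream of Olig1. These summits, too, lay nearer to the start of Ifnar2. Inside the long non-coding gene Gm15966, 12.8 kb downstream of Olig1, Nr5a2 had 36 tags and Nr5a2BiD 20. Sox2BiD had 42 tags (score 686) at chr16:91192410-91193475, 32.4 kb upstream of Olig2, with no Sox2 peak. Sox2 and Sox2BiD met 6.75 kb upstream of Olig1, at chr16:91262537-91263545, with 18 tags (score 56.5) in Sox2 and 33 tags (score 373) in Sox2BiD. Oct4BiD had 31 tags alone 98.6 kb upstream of Olig2 and 28 tags 34.7 kb downstream of Olig1, both on octamers, and native Oct4 had a peak at neither. The summit 98.6 kb upstream of Olig2 lay nearer to the start of another gene, 4932438H23Rik.

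Nkx2-2 had the fewest regions, 10, each with peaks of 1 factor. Besides its promoter, Nr5a2 had 32 tags (score 477) and Nr5a2BiD 18 (score 138) at chr2:147177771-147179301, in an intron of the gene 15.4 kb downstream. This was the highest-scoring region of Nr5a2 here, and the native form was the higher at both sites. Oct4 had 13 tags and Oct4BiD 9 at chr2:147215715-147216525, 22 kb upstream, the one region near the 7 genes where both forms of Oct4 were called and the native summit was the higher. Sox2 had 18 tags and Sox2BiD 11 at chr2:147144857-147145513, 49.1 kb downstream. Neither Nanog form had a peak in the window.

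Pax6 had 17 regions and the largest difference between the Nanog forms, 0 summits in Nanog and 4 in NanogBiD. The 4 NanogBiD summits had 18 tags 5.84 kb upstream (score 121), 25 tags (score 162) 6.71 kb downstream, 12 tags 18.7 kb downstream and 11 tags 25.1 kb downstream. They lay between 5.84 kb upstream of the first start and the end of the gene, 3 of them in the gene, and the upstream one held the NANOG letters. The difference depended on the threshold. NanogBiD had 1 summit here at heights of at least 20 tags and 0 among its 20000 highest-scoring peaks. Oct4BiD had 4 summits and Oct4 1, and Sox2BiD had 7 and Sox2 0. The highest Sox2BiD summit was 47 tags (score 283) in an intron 21.2 kb downstream, at chr2:105689657-105690779, as high as or higher than 90.9% of its peaks. Its highest-scoring one (score 327) was 26 tags 33.2 kb downstream, in an untranslated part of the neighbour Elp4. Nr5a2 had 6 summits, the highest of 24 tags 5.67 kb upstream, and of these only the sites 29.5 kb upstream and 8.66 kb downstream had a Nr5a2BiD peak.

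Neurog2 had 18 regions. Aside from the region at Larp7 and Zgrf1, the most libraries met at chr3:127585444-127586925, in Zgrf1 46.6 kb upstream, with Sox2 at 17 tags, Sox2BiD at 15, Nr5a2 at 30 and Nr5a2BiD at 27. At chr3:127571496-127573215, also in Zgrf1 and 61 kb upstream, Oct4BiD had 35 tags (score 265) on an octamer, Oct4 10 and Sox2BiD 15. The region chr3:127639720-127641125, 7.33 kb downstream, held Oct4BiD at 9 tags, Sox2BiD at 15 and a pair of Nr5a2 summits of 14 tags each. Nr5a2 had 35 tags and Nr5a2BiD 21 at chr3:127648175-127649094, 15.5 kb downstream. The highest-scoring Sox2BiD site, of 18 tags (score 263), was chr3:127705499-127706859, 72.7 kb downstream in an intron of Alpk1, with no other library. Sox2BiD had 23 tags (score 169) 2.13 kb downstream of the start, in an untranslated part of the gene and just outside the 2 kb that counts as its promoter.

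**Figure D5:**
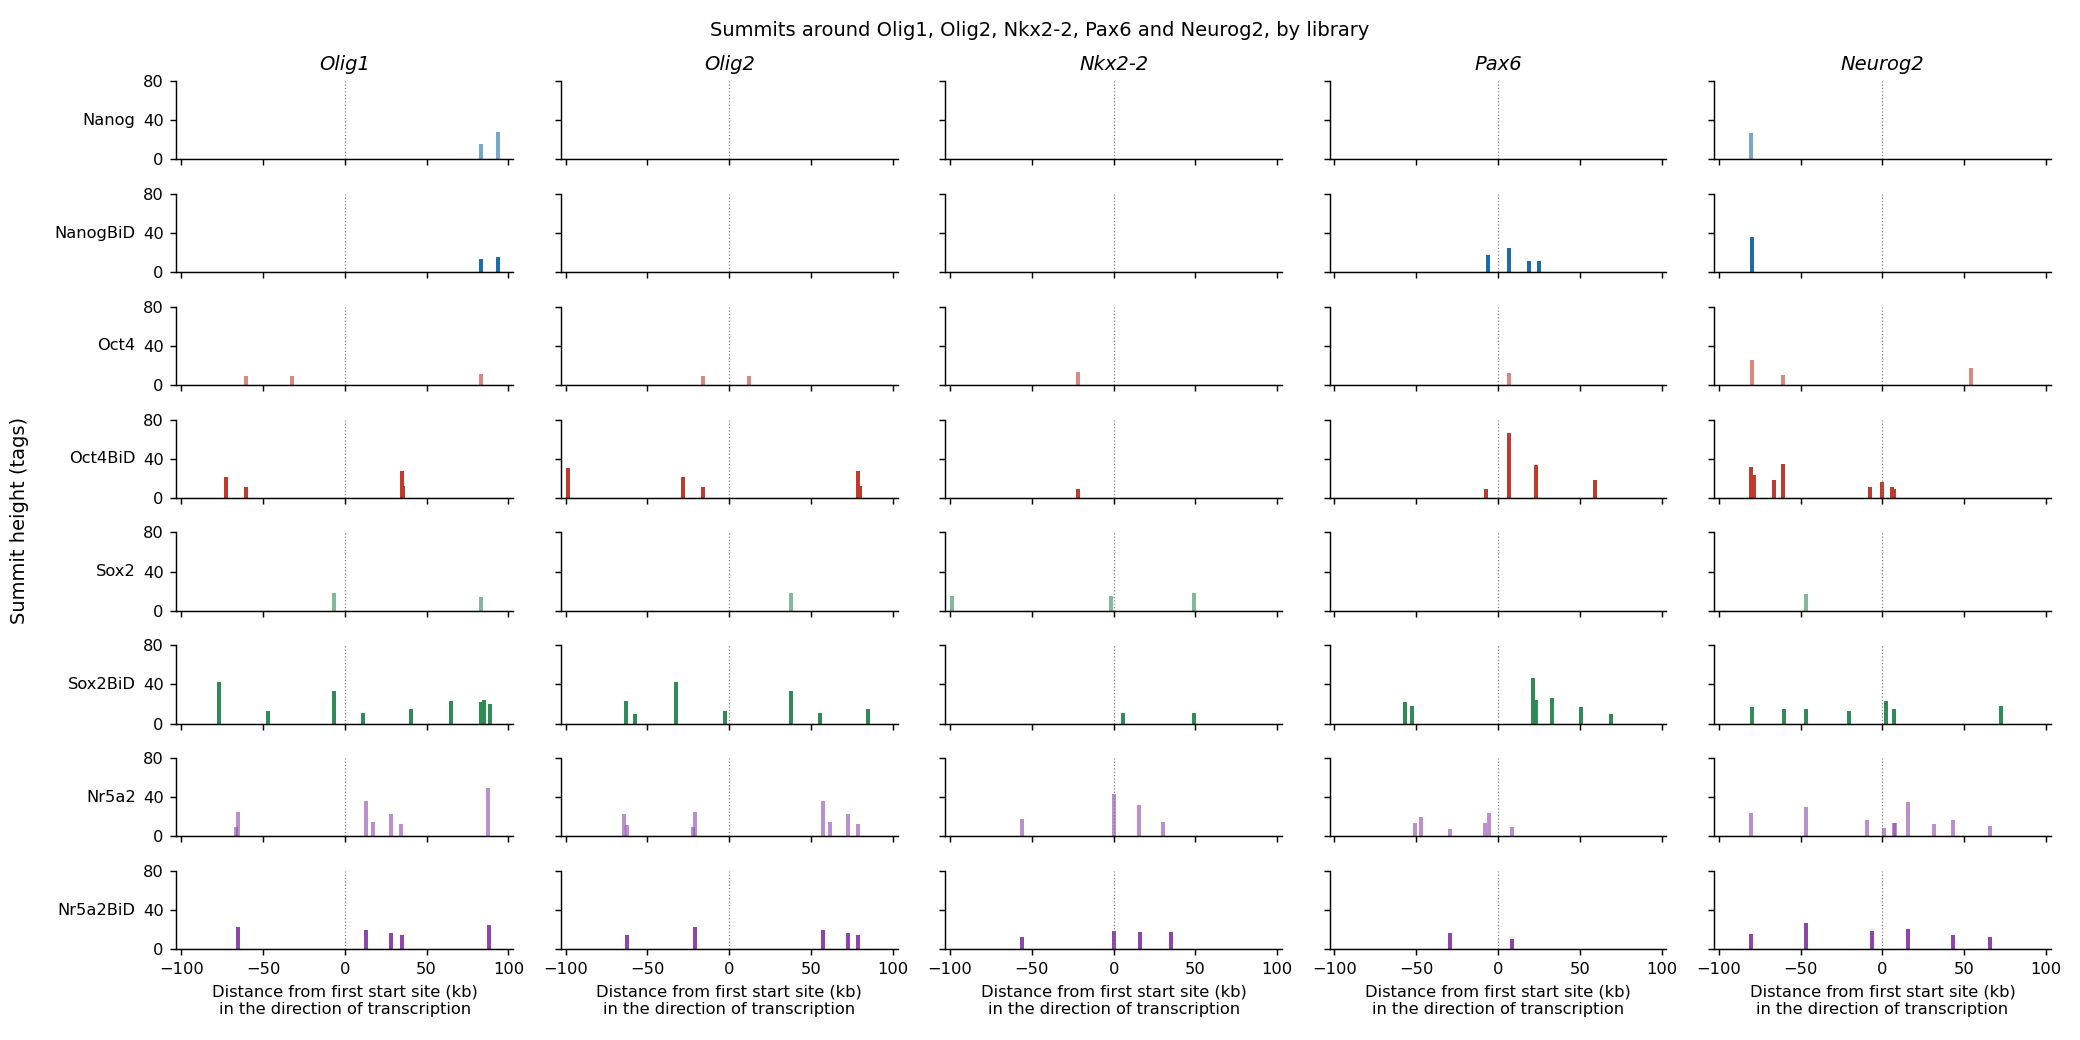
Summits around Olig1, Olig2, Nkx2-2, Pax6 and Neurog2 in the 8 libraries, by distance in kb from each first start site (dotted line) in the direction of transcription, with bar height the summit height in tags. The Olig1 and Olig2 panels overlap and show shared summits in both, and the highest bar is Oct4BiD at 66 tags in Pax6.

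The other neural genes gave the same order of libraries in part. Of the 26, Oct4BiD had more summits than Oct4 at 21 and fewer at 2, Sox2BiD more than Sox2 at 23 and fewer at 0, and Nr5a2BiD fewer than Nr5a2 at 25 and more at 0. NanogBiD had more than Nanog at 13 and fewer at 6. A promoter summit was found at 12 of them in Nr5a2 and at 3 in Nr5a2BiD, at 7 in Oct4BiD and at 2 in Oct4, and at 4 in each of Nanog, NanogBiD and Sox2BiD. At the 10 fibroblast genes the median number of summits over all libraries was 94.5, and promoter summits ranged from 6 genes in Sox2 to 10 in Nanog. The 7 genes of neural cells had a median of 87, against 76 over all coding genes. Low counts were thus not shared by all neural genes looked at. The RefSeq promoters of the members in GRCm38.p6, short windows over a start site, matched 5 of the 7 genes and had a GC content from 46%, at Olig3, to 65%, at Olig2, against a median of 52.7% over 32851 promoters.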

How the data were processed

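The processing notes of the authors name Trim Galore 0.6.4, Bowtie2 2.4.5, SAMtools 1.16.1 and MACS 1.4.2, with mm10 as the build. Repetitive, poorly mapped and mitochondrial reads were removed before peak calling, per the methods. No control library is named for the peak calls. The methods state that replicates were merged, and the study's reporting form that this assay was done once, so it is not known whether a list pools replicates. The labels give 100000 cells per sample, while the study's methods give a lower number. In the deposited peak lists, the score equals -log10 of the caller's p-value times 10. The signal in the deposited summit lists is a height in whole tags that was not scaled to depth. The lists hold no read totals. By the study's reporting form, NanogBiD and Nr5a2BiD had more read pairs than their native forms, and Oct4BiD and Sox2BiD fewer, so for Oct4, Sox2 and Nr5a2 the form with more peaks had fewer pairs.

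Groups were taken from the sample titles. Coordinates are 1-based mm10, and genes are from GENCODE M21. No peak ran past a chromosome end, and 110 peaks lay off the placed chromosomes. All 7 genes are named, with every promoter region, the region of most libraries and the highest-scoring region of each factor, and other high sites were named after their values were seen. Shares and ratios of counts carry exact (Clopper-Pearson) 95% intervals. With 4 factors an exact sign-flip permutation test could not go below p = 0.125, and none was run. The members, lists and comparisons were chosen with earlier results of these data known, and the group of genes without a coding neighbour was added after seeing the data. Counting was checked on simulated peaks. Windows of 50 kb, scores of 100 or more, the 20000 highest-scoring peaks, heights of at least 20 tags, nearest genes only, promoters of 500 bp or of the first start, and summits within 100 bp were the alternatives. Python 3.11.15, NumPy 2.4.6, pandas 2.3.3, SciPy 1.17.1, pysam 0.24.0 and matplotlib 3.10.9 were used.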

Additional observations from a re-analysis of the deposited data

Results flagged for a closer look

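The log2 ratio of summits near the 7 genes, fusion over native factor, was -0.55 for Nr5a2 and above 0 for Nanog, Oct4 and Sox2. It was singled out because its direction was the opposite of that of the other factors: 6 genes had fewer summits in Nr5a2BiD and none had more, while 6 genes had more in Oct4BiD and 6 in Sox2BiD. Of all coding genes, 4.19% had more in Nr5a2BiD, 82.2% more in Oct4BiD and 88.4% more in Sox2BiD, so these directions were those of the whole libraries. With 1 library per group the difference was not tested. The same direction was present over all peaks, at -0.50.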

How the results depend on the processing

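With 1 library per group, no value has an error between cultures, and counts and heights were not scaled to depth. The log2 ratio of summits near the 7 genes moved beyond its counting interval for Oct4BiD over Oct4, from 1.34 to 3.09 at scores of 100 or more, 2.81 among the 20000 highest-scoring peaks and 3.58 at heights of at least 20 tags. Among the 20000 highest-scoring peaks, NanogBiD over Nanog moved to -1.58, on 1 and 3 summits, and Nr5a2BiD over Nr5a2 to -1.42, on 3 and 8. The directions for Oct4, Sox2 and Nr5a2 held under every alternative run, while Nanog was 0 at heights of at least 20 tags and turned among the highest-scoring peaks. The 111 regions became 64 with windows of 50 kb, 69 at scores of 100 or more, 23 among the 20000 highest-scoring peaks and 48 at heights of at least 20 tags. Regions with a peak of 1 library went from 62 of 111 to 36 of 64 with windows of 50 kb. They were 16 of 23 among the 20000 highest-scoring peaks and 33 of 48 at heights of at least 20 tags. Chaining summits within 100 bp gave 94 of 133. These alternatives keep fewer peaks or split regions by construction. Regions with all 8 libraries stayed at 0 throughout. The number of genes with a promoter summit was 3 with promoters of 500 bp and 2 with the first start alone, at scores of 100 or more, among the highest-scoring peaks and at heights of at least 20 tags. Of 56 counts per gene and library, 46 moved by over 1.5 times among the 20000 highest-scoring peaks and 12 with nearest genes only.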
